A study of Mus musculus with 15 samples.

Results

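The comparison set the average of 4 GATA1 mutant lines, each line with equal weight, against the wild type line, and asked which genes moved the same way in all 4. It used 15 of the 15 arrays of the study. All were mouse G1E cells, a GATA1-null proerythroblast line that can mature into red cells once GATA1 is restored. Every line carried GATA1-ER, a fusion of GATA1 to an estrogen receptor domain that is active only when estradiol is present. The reference was the wild type fusion (3 cultures, 1 array each), and the mutant lines carried R216Q, R216W, D218G or D218Y in the GATA1 protein (3 cultures each). All 15 cultures had received 100 nM estradiol for 24 hours, so the reference was a maturing culture and untreated cells were not analysed here. The sources used here do not say whether a construct was carried by 1 clone, a pool or several lines. Line and mutation therefore cannot be told apart, and a p-value here, unless stated otherwise, weighs a difference against the variation of cultures within lines.

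GATA1 is a zinc finger transcription factor that binds GATA motifs in DNA and is needed for the maturation of red cells and megakaryocytes. Both changed residues belong to the finger nearer its amino terminus, through which GATA1 touches DNA and binds FOG1, a cofactor encoded by Zfpm1. When GATA1 is restored to G1E cells they normally turn on globin, haem and membrane genes and turn off genes of immature progenitors such as Kit, the stem cell factor receptor, and Gata2, the related factor of earlier blood cells.

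The array values were log2 expression values between 2.89 and 13.58, with array medians from 6.24 to 6.41, and 19933 genes were tested with limma. Below, a difference is a log2 difference from wild type, given with its standard error (SE), and a gene is called where limma's adjusted p was under 0.05. A shared rise or fall is a gene called in the same direction in each of the 4 lines. The 4 comparisons use the same 3 wild type arrays, so a departure of those arrays enters every line alike. In these RNA extracts, fewer cells of a type and less RNA per cell cannot be told apart. Replicate 3 of D218G had a lower array median than the other arrays of its line (6.24 against 6.37 and 6.40). Erythroid markers were high in wild type (Alas2 12.33, Klf1 11.58, Tfrc 12.44), while granulocyte and monocyte markers were low in every line. The adult globin genes shared probe sets with several symbols and were not analysed here.

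The stretch before the start of a gene is where GATA motifs would be read by GATA1 close to the gene, so the promoters of 4 shared genes with a motif there are shown. They were picked for having a motif, from the 12 shared rises and 12 shared falls ranked below. Of those, 9 rises and 11 falls had a RefSeq promoter, and 4 of the 9 and 5 of the 11 had a motif there. The sequences come from RefSeq on GRCm38.p6, 250 bases before the annotated start, and capitals mark a match on either strand. The motifs searched were AGATAA and its variant TGATAA with another first base, then AGATAG with another last base, and finally TGATAG with both changes. Hemgn encodes hemogen, a nuclear protein of red cell precursors (chr4:46404184-46404433, minus strand), and its match began 13 bases before the start. Epb42 encodes the membrane protein band 4.2 (chr2:121036878-121037127, minus strand, match 226 bases before the start). Pfkfb4 encodes a regulator of glycolysis (chr9:108991652-108991901, plus strand, 143 bases before). These 3 genes fell in all 4 lines, and Gask1b, a Golgi-associated kinase gene (chr3:79885680-79885929, plus strand, 87 bases before), rose in all 4.
Hemgn: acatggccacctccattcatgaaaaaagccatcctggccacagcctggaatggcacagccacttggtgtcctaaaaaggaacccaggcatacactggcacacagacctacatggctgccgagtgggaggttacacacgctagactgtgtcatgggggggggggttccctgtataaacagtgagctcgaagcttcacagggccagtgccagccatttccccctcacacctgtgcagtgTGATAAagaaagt
Epb42: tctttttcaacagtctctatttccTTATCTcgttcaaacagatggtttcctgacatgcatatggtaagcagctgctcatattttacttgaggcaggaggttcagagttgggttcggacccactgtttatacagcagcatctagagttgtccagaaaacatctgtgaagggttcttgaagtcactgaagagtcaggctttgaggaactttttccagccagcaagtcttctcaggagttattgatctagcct
Pfkfb4: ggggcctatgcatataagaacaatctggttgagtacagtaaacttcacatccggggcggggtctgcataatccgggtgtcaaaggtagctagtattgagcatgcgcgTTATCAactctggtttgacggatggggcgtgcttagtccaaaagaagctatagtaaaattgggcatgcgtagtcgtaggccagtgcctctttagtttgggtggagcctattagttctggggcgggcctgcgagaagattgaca
Gask1b: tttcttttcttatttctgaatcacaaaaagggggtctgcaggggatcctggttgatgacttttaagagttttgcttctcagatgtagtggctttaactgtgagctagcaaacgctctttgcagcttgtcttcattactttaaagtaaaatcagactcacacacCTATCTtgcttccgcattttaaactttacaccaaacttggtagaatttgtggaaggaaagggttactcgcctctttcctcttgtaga

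Such a match stood in 14.3% of 560 promoters of the shared rises (444 of 548 genes matched to RefSeq) and in 19.5% of 426 promoters of the shared falls (332 of 392 genes). Over all genes tested it stood in 22.4% of 19173 promoters, and over genes above the median array level in 16.9% of 10105. Shared genes were mostly well expressed, so the last share is the closer match in level. The median GC content of these promoters was 60.4% for the rises, 61.2% for the falls, 56.8% for all genes and 60.4% for the genes above the median level. A match describes letters only and says nothing on whether GATA1 binds there.

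On the average of the mutant lines 5575 of 19933 genes were called (28.0%), 3089 higher (15.5%) and 2486 lower (12.5%) than wild type. Most differences were small, since 52 genes were at least 2-fold higher (0.261%) and 38 at least 2-fold lower (0.191%). In all 4 lines separately, 548 genes rose (2.75%) and 392 fell (1.97%), together 940 (4.72%). The single lines had 11.8% (R216Q), 9.36% (R216W), 10.3% (D218G) and 20.3% (D218Y) of all genes called higher and 9.65%, 7.23%, 7.77% and 24.2% called lower. In 535 of the 548 rises (2.68% of all genes) every one of the 12 mutant arrays lay above every wild type array, and in 387 of the 392 falls (1.94%) every one lay below. Over all genes, called or not, the arrays stood apart in this way for 899 upward (4.51%) and 733 downward (3.68%). With each array centred on its own median the share of higher calls moved from 55.4% to 68.3% on the average and from 58.3% to 70.6% among shared genes, where falls dropped to 163. Quantile normalization gave 487 shared falls and cyclic loess 478, with 53.2% and 55.6% of shared genes higher. On the average the share of higher calls was then 51.4% and 56.5%. Taking each line's mean as a single value, 4 mutant lines against 1, left no gene called by limma (394 genes at an unadjusted p under 0.05). That fit had 3 residual degrees of freedom and took the spread among different mutations as its error, so its lack of calls decides little. By the design, the calls speak of these cultures and not of independently made lines.

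**Figure D1:**
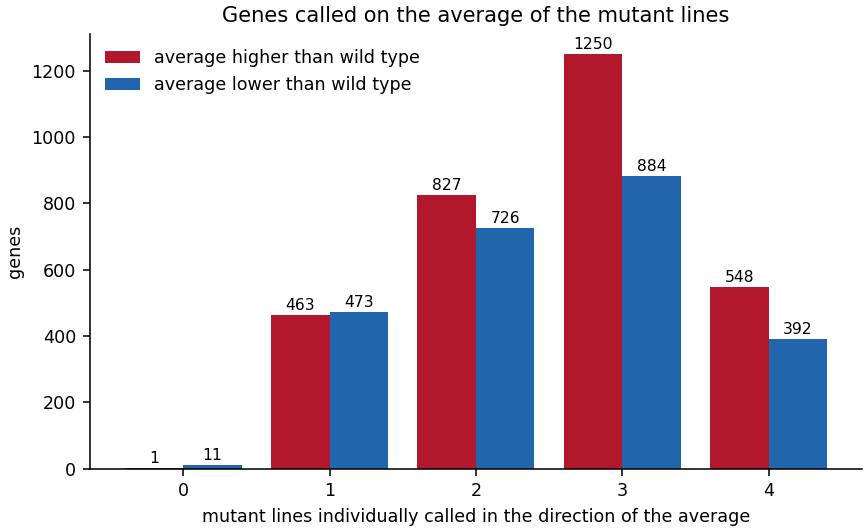
Bars count the genes called on the average of the mutant lines (red higher, blue lower than wild type) by the number of mutant lines, 0 to 4, that were also called in that direction on their own. The most filled class is 3 lines (1250 higher, 884 lower), and 548 and 392 genes reached all 4.

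Genes called in 3 lines but not the last were mostly missed in R216W or D218G. R216W was the line not called for 777 rises and 514 falls, and D218G for 450 and 338. R216Q was missing for 31 rises and 33 falls, and D218Y for 5 and 16. In 63 of the 777 and 101 of the 514 genes, R216W was called in the opposite direction. The same held for D218G in 30 of 450 and 39 of 338, for R216Q in 1 of 31 and 1 of 33, and for D218Y in 1 of 5 and 5 of 16.

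Transcript of Gata1 was abundant in all lines. Wild type arrays read 12.35, 12.36 and 12.36, those of R216Q 12.14 to 12.16, of R216W 12.24 to 12.26, of D218G 12.33 to 12.38 and of D218Y 12.05 to 12.08. The D218G values overlapped those of wild type and the other lines lay below them. The average of the mutants was -0.15 ± 0.02 (adjusted p = 1.37e-04 by limma), and an exact two-sided permutation test over 12 and 3 arrays gave p = 0.0396, where the smallest possible is 0.0022. That test regroups arrays freely, although arrays of a line lay close together. It therefore takes cultures and not lines as its units, and its p-value does not speak of mutant lines in general. With arrays centred on their medians the call was lost (-0.11, adjusted p = 0.0703). Whether the probe set also reads transcript of the disrupted endogenous allele was not tested.

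Ordered by their change in the weakest line, the 12 shared rises at the top were Lgmn, Gask1b, Papss2, Pkp2, Slc7a6, Pfkp, Igf2bp1, Hhex, Maoa, Cers5, Ehf and Hddc2. Lgmn, the lysosomal protease legumain, read 6.36, 6.42 and 6.52 in wild type. Its arrays read 8.46, 8.46 and 8.37 in R216Q, 7.70, 7.80 and 7.81 in R216W, 7.52, 7.50 and 7.75 in D218G, and 9.20, 9.08 and 9.22 in D218Y. No mutant array reached down to the wild type arrays, D218Y stood highest and D218G lowest of the 4 lines. The average rose by 1.81 ± 0.05 (adjusted p = 1.06e-11), with 2.00 in R216Q, 1.34 in R216W, 1.16 in D218G and 2.73 in D218Y. Gask1b read 6.72, 6.78 and 6.96 in wild type, 8.96 to 9.05 in R216Q, 8.38 to 8.41 in R216W, 7.74 to 8.17 in D218G and 10.35 to 10.47 in D218Y. It rose by 2.11 ± 0.07 on the average (adjusted p = 2.04e-11), with D218Y again highest and D218G lowest of the mutant lines.

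Enzyme and transport genes among the 12 came next. Slc7a6, a subunit of an amino acid transporter, read 6.50 to 6.67 in wild type, 8.49 to 8.61 in R216Q, 7.55 to 7.69 in R216W, 7.13 to 7.57 in D218G and 9.84 to 9.89 in D218Y. Its average rise was 1.79 ± 0.07. Papss2, which makes the sulphate donor of cells, rose by 1.42 ± 0.05, with the wild type arrays at 7.52 to 7.60 and the mutant arrays at 8.26 to 9.87. Pfkp, the platelet form of phosphofructokinase, was changed by a similar amount in R216Q (1.40) and D218Y (1.36), with 0.76 in R216W and 0.78 in D218G. Maoa, a monoamine oxidase, rose by 1.22 on the average and Cers5, a ceramide synthase, by 1.16, and no mutant array of either overlapped wild type. Hddc2, the last of the 12, read 8.53 to 8.66 in wild type and 9.21 to 10.29 in the mutants.

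The rest of the 12 have other roles. Hhex, a homeobox factor of early blood cells, read 6.86, 7.05 and 6.56 in wild type and 7.41 to 9.99 over the mutant arrays, and rose by 1.70 ± 0.08 (adjusted p = 7.86e-10). Ehf, an Ets family factor of epithelial cells, rose by 3.58 in D218Y against 1.28 in R216Q, 0.65 in R216W and 0.73 in D218G. Pkp2, a desmosome protein, had the same shape, at 3.23 in D218Y and between 0.80 and 1.92 in the others. Igf2bp1, an RNA-binding protein of fetal tissues, was more even, at 0.89, 1.09, 0.75 and 1.46 in the order R216Q, R216W, D218G and D218Y.

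Among the 12 shared falls with the largest change in their weakest line, Tubb1 came first. Tubb1, the tubulin of platelets, read 9.89, 9.74 and 9.85 in wild type. R216Q arrays read 8.07 to 8.10, R216W 7.54 to 7.60, D218G 8.46 to 8.77 and D218Y 6.88 to 7.21. The groups did not overlap, and the average fell by 2.02 ± 0.07 (adjusted p = 2.71e-11). Gstt1, a glutathione transferase, read 8.66, 8.45 and 8.43 in wild type and between 5.94 and 7.48 in the mutants, and its average was -1.55 ± 0.09 (adjusted p = 4.43e-09). Mgst3, a microsomal enzyme that also uses glutathione, fell by 1.37, from 9.16 to 9.25 in wild type to 6.73 to 8.67 over the mutant arrays.

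The 3 falls whose promoters are printed above all stood lowest in D218Y. Hemgn read 10.63, 10.62 and 10.65 in wild type, 9.50 to 9.57 in R216Q, 9.79 to 9.82 in R216W, 9.83 to 9.98 in D218G and 8.12 to 8.29 in D218Y. All 12 mutant arrays were below wild type, D218Y farthest, and the average fell by 1.27 ± 0.04 (adjusted p = 1.06e-11). Epb42 read 8.64 to 8.79 in wild type, 7.63 to 7.74 in R216Q, 7.73 to 7.85 in R216W, 7.60 to 7.94 in D218G and 6.64 to 6.81 in D218Y. R216Q, R216W and D218G overlapped each other there, and the average fell by 1.25 ± 0.06 (adjusted p = 1.15e-09). Pfkfb4 fell by 1.01, with 10.51 to 10.57 in wild type, 9.76 to 10.03 in R216Q, R216W and D218G, and 8.41 to 8.42 in D218Y.

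Tmod3, which caps actin filaments, was the exception in order among the falls. It read 10.68 to 10.72 in wild type, 8.87 to 8.92 in R216Q, and 9.74 to 10.05 in the other 3 lines, so R216Q was lowest. Dnajb2, a co-chaperone of heat shock protein, fell by 1.41 ± 0.05, nearly alike in R216Q (-1.46) and R216W (-1.48) but less in D218G (-0.80). The other ranked falls were Tbxas1, thromboxane synthase (-0.96), Tmem184a (-1.07), Lipe, the hormone-sensitive lipase (-0.99), and Dnpep, an aspartyl aminopeptidase (-0.70).

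**Figure D2:**
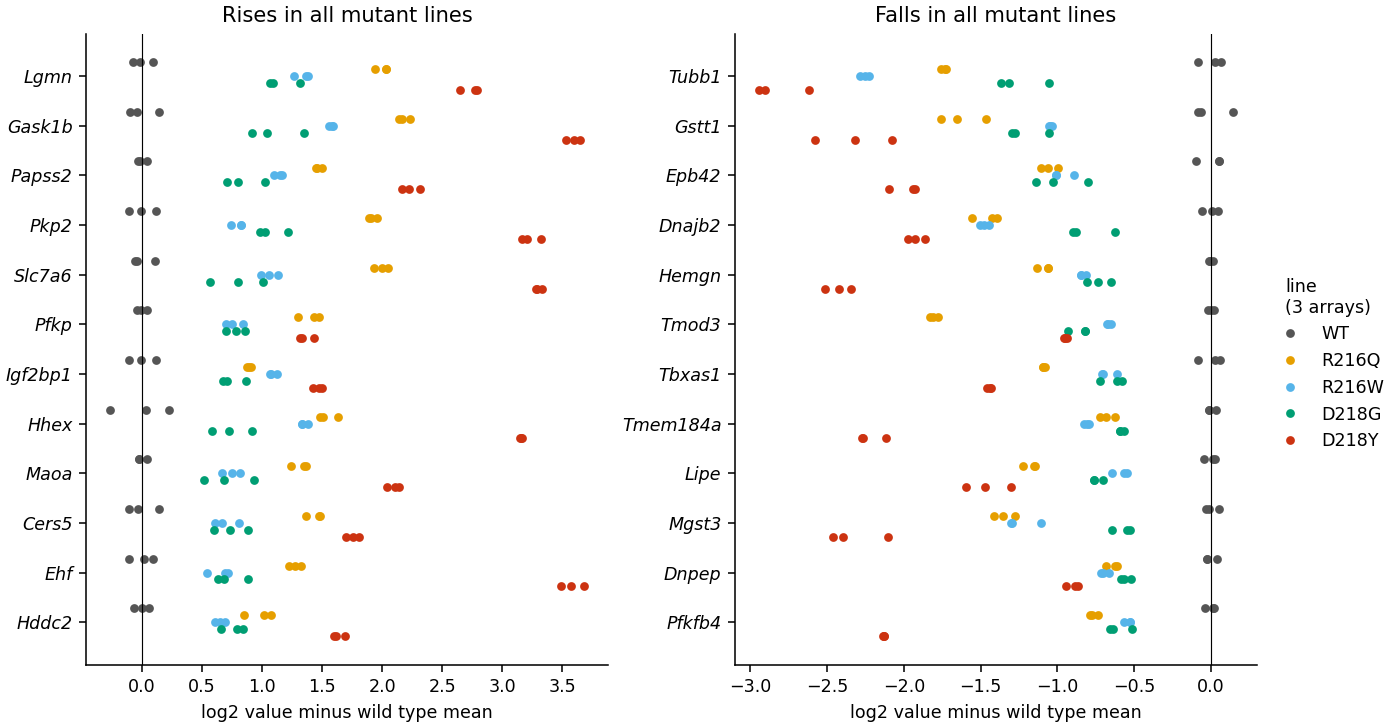
Each point is 1 array, plotted as its log2 value minus the wild type mean (x axis), for the 12 shared rises (left) and 12 shared falls (right) with the largest change in their weakest line; colours give the line, 3 arrays each. Every mutant array lies on 1 side of the wild type arrays, and D218Y (red) is the farthest line in 22 of the 24 genes.

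The lines agreed in direction for these genes but not in size. Among the 548 rises the median difference was 0.42 in R216Q, 0.29 in R216W, 0.31 in D218G and 0.80 in D218Y. Among the 392 falls it was -0.39, -0.27, -0.25 and -0.70. D218Y was the farthest line for 502 rises and 337 falls. The smallest change was mostly that of R216W (279 rises, 178 falls) or D218G (236 and 175). By limma's F test the 4 mutant lines differed among themselves in 525 of the 548 rises and 370 of the 392 falls, where 39.7% of all genes did. D218Y went beyond the mean of the other 3 lines in 508 rises and 341 falls and fell short of it in 6 and 12, where 39.8% of all genes differed either way. These shares are descriptive, as the genes were picked for calls in all 4 lines and stood at higher levels (median over the 15 arrays 9.02 for rises and 9.74 for falls against 6.48 for all genes). The median ratio of the D218Y difference to the mean of the others was 2.26 for rises and 2.23 for falls on the log2 scale.

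**Figure D3:**
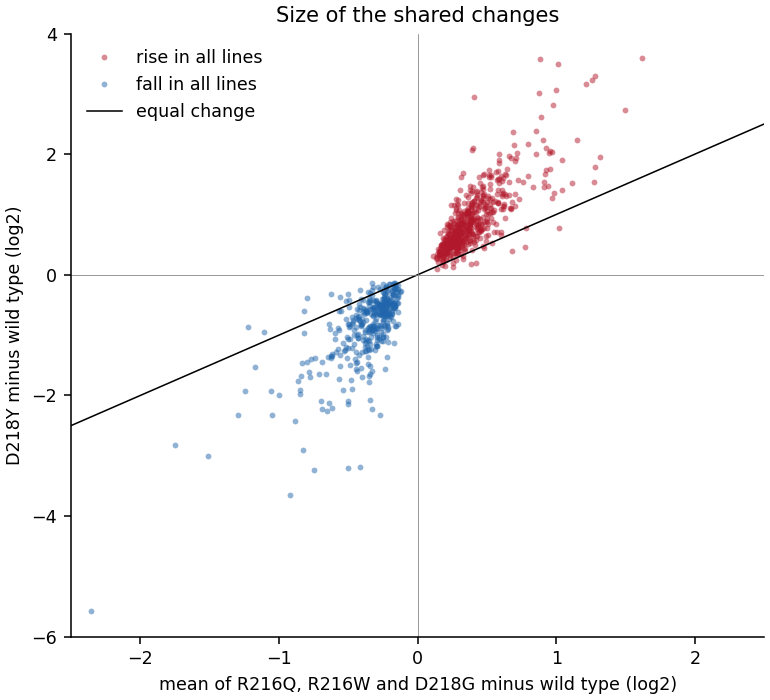
Each point is 1 of the 548 shared rises (red) or 392 shared falls (blue); the x axis is the mean log2 difference of R216Q, R216W and D218G from wild type, the y axis that of D218Y, and the line marks equal change. Most points lie farther from 0 on the y axis, with a median ratio of 2.26 for rises and 2.23 for falls.

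The shared genes with the narrowest range of line differences were then ranked, among those with an average of at least 0.5 in size and no overlap with wild type, and in Kctd7 alone of the 10 no difference among lines was detected. Kctd7, a potassium channel tetramerisation domain protein, read 8.19, 8.34 and 8.22 in wild type, 7.51 to 7.69 in R216Q, 7.73 to 7.77 in R216W, 7.65 to 7.73 in D218G and 7.55 to 7.73 in D218Y. All 12 mutant arrays lay within 7.51 to 7.77, with line differences of -0.64, -0.50, -0.55 and -0.60, and its average was -0.57 ± 0.04 (adjusted p = 1.31e-07). Its F test among the 4 lines gave an adjusted p of 0.215. The 10 genes were picked for a narrow range of these same differences, so their F tests are descriptive. Among all shared genes the F test did not pass for 23 rises and 22 falls. The other 4 falls of this ranking were Mcpt2, Tctn1, Ift20 and Dnpep, and for each the F test passed (Mcpt2 adjusted p = 0.0196). D218G moved least in all 4 of them, at -0.34 for Mcpt2 and -0.44 for Tctn1 where D218Y was at -0.67 and -0.82. Mcpt2, a mast cell protease, was already near the bottom of the range in wild type (4.44). Tctn1 (-0.68) and Ift20 (-0.57) encode proteins of the primary cilium. The 5 rises of this ranking were Pip4p2 (average 0.53), Pqlc3 (0.63), Zc2hc1a (0.51, not shared without wild type 1 or R216W 2), Adamts6 (0.59) and Map3k3, a kinase of the MAP kinase cascade (0.62). The F test among lines passed for all 5, with adjusted p from 6.32e-05 (Map3k3, at 0.36 in D218G and 0.70 to 0.73 elsewhere) to 0.0089 (Zc2hc1a). Pqlc3 read 8.69 to 8.85 in wild type, 9.19 to 9.45 over R216Q, R216W and D218G, and 9.65 on all 3 D218Y arrays.

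At the edge of the shared set, the genes with an average of at least 0.5 in size that only just entered were Grtp1 (highest of the 4 adjusted p-values 0.0488) and Coro2a (0.0477), and those just outside were Clip1 (0.051) and Mthfd1 (0.0513). Grtp1 read 10.53 to 10.55 in wild type and 10.34 to 10.52 in D218G, with 9.39 to 10.08 in the other lines. Mthfd1, an enzyme of folate metabolism, read 10.66 to 10.70 in wild type and 10.74 to 10.80 in R216W, with 11.29 to 12.08 elsewhere.

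The genes that red cells need were then taken by role, from lists written with earlier results of these data known. List members called in all 4 lines are named even where the naming rule did not reach them, and those were chosen after their values were seen. For scale, the median average difference over all genes was -0.03. Of 11 measured genes of haem synthesis all 11 were lower on the average (median -0.42, where 12.5% of all genes were called lower), and Alas2, Uros and Urod fell in all 4 lines. Alas2, the first enzyme of the pathway in red cells, read 12.29 to 12.35 in wild type, 11.98 to 12.04 in R216Q, 11.88 to 11.97 in R216W, 11.78 to 11.80 in D218G and 9.03 to 9.32 in D218Y. Every line was below wild type, but D218Y stood far below the rest, and the average of -1.10 ± 0.05 (adjusted p = 2.19e-10) was drawn mainly from that line (-3.18). Uros, a later enzyme, was spread more evenly (-0.86, -0.86, -0.41 and -1.65). Urod was a narrow call, lost without replicate 1 or 3 of wild type or any R216W array and with arrays centred on their medians.

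All 5 measured genes of the globin list were lower on the average (median -1.05, where 12.5% of all genes were lower). The embryonic globins Hba-x and Hbb-y and the theta globin gene Hbq1b fell in all 4 lines. Another embryonic globin, Hbb-bh1, stood at 11.40 in wild type and did not fall in all 4. Its difference was 0.01 in R216Q and 0.17 in D218G, neither called, -0.94 in R216W and -1.76 in D218Y. Hba-x read 9.78, 9.58 and 9.60 in wild type, 7.63 to 7.72 in R216Q, 8.97 to 9.29 in R216W, 7.59 to 7.64 in D218G and at most 6.71 in D218Y. R216Q and D218G lay together, between D218Y and R216W, R216W stayed nearest to wild type, and the average fell by 1.89 ± 0.06 (adjusted p = 1.07e-11). The call of Hbb-y in all 4 lines was lost when replicate 2 or 3 of wild type, or replicate 1 or 2 of D218G, was left out.

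Of 23 red cell membrane genes 19 were lower and 1 higher on the average (median -0.30, where 12.5% of all genes were lower), and 8 fell in all 4 lines (1.97% of all genes). These were Epb42, Dmtn, Add2, Tmod1, Tmod3, Rhd, Kel and Tspan33, and Slc2a1, a glucose transporter, rose in all 4 (0.56 ± 0.05). Tmod1, which caps actin in the membrane skeleton, read 9.88 to 9.97 in wild type, 8.42 to 8.54 in R216Q, 9.35 to 9.40 in R216W, 9.08 to 9.18 in D218G and 6.15 to 6.38 in D218Y. Each line held its own level there, and the average fell by 1.60 ± 0.04. Dmtn, the actin-bundling protein dematin, fell by 1.35 ± 0.04 and the blood group gene Rhd by 0.72 ± 0.03. The largest average of the list, Slc4a1 (the anion exchanger band 3, -1.98 ± 0.04), was not a shared fall. Its arrays read 12.36 to 12.45 in wild type, 12.27 to 12.30 in R216W, 11.29 to 11.43 in R216Q, 11.27 to 11.32 in D218G and 6.72 to 6.93 in D218Y. R216W lay just under wild type without passing (-0.12, adjusted p = 0.145).

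In iron handling, 8 of 17 genes were lower and 2 higher on the average (median -0.05), where 12.5% of all genes were lower and 15.5% higher. Tfrc, the transferrin receptor (-0.26), Slc25a37, the mitochondrial iron importer mitoferrin (-0.79), and Erfe, the hormone erythroferrone (-1.37), fell in all 4 lines. The calls of Tfrc and Slc25a37 in all lines were lost with arrays centred on their medians. Hmox1, which breaks down haem, rose in all 4, with 6.71 to 6.80 in wild type and 6.94 to 8.89 over the mutant arrays (average 0.98 ± 0.07).

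Among 31 erythroid regulators 18 were lower and 5 higher on the average (median -0.13, where 12.5% and 15.5% of all genes were), and 8 fell in all 4 lines (1.97% of all genes). They were Klf13, Nfe2, E2f2, E2f8, Trim10, Ube2l6, Bach1 and Mafk, with averages from -0.23 (Mafk) to -0.73 (Trim10). Nfe2, the NF-E2 subunit that drives globin genes, was at -0.70, -0.14, -0.42 and -0.68 in the order above. Factors that work beside GATA1 were not called in all 4 lines, with averages as follows: Klf1 -0.11 ± 0.03, Zfpm1 -0.13 ± 0.03, Tal1 -0.25 ± 0.03, Lmo2 0.13 ± 0.03 and the erythropoietin receptor Epor -0.27 ± 0.03. The average calls of Klf1 (adjusted p = 0.298) and Zfpm1 (adjusted p = 0.124) were lost with arrays centred on their medians, and that of Lmo2 without D218G (adjusted p = 0.0901). Without D218Y none of Klf1 (adjusted p = 0.259), Zfpm1 (0.0512), Tal1 (-0.07, 0.161) and Lmo2 (0.187) was called on the average, and Klf1 was not called without wild type 1 either (adjusted p = 0.0727). Of the 8 shared regulators, E2f8 and Bach1 alone kept the call in all lines with centred arrays. Trim10 and Nfe2 also lost it whenever a single wild type array was left out, Trim10 without R216Q 1, R216W 1 or 3 or D218Y 2, and Nfe2 without R216W 2 or 3. Mafk lost it without wild type 1 or 3 or D218G 1 or 2, E2f2 without wild type 3 or D218G 1, and Ube2l6 without R216W 2.

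Of 26 progenitor genes 9 were higher and 4 lower on the average (median -0.01, where 15.5% and 12.5% of all genes were), and Kit, Myb, Hhex and Cd44 rose in all 4 lines. Kit read 9.54, 9.56 and 9.42 in wild type, 10.93 to 10.98 in R216Q, 10.32 to 10.37 in R216W, 10.04 to 10.10 in D218G and 11.53 to 11.55 in D218Y. No lines overlapped, all 4 were above wild type, and the average rose by 1.22 ± 0.03 (adjusted p = 5.38e-12). Myb, a factor of dividing progenitors, read 9.66 to 9.69 in wild type, 10.17 to 10.23 in R216Q, 10.03 to 10.04 in R216W, 10.50 to 10.60 in D218G and 11.51 to 11.55 in D218Y. Here D218G stood above R216Q and R216W, unlike for Kit, and the average rose by 0.91 ± 0.03. Cd44, an adhesion receptor lost as red cells mature, rose by 1.23 ± 0.04, from 7.63 to 7.71 in wild type to 8.19 to 9.75 in the mutants. Myc (0.45 ± 0.04) was higher on the average but not shared, with R216W at -0.12.

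Markers of other blood cells were followed over whole lists. They are read against 15.5% of all genes higher, 12.5% lower and 28.0% called on the average. In all 4 lines 2.75% of all genes rose and 1.97% fell. Mast cell genes went 5 higher and 2 lower of 17, and the log2 of their summed level was 10.36 to 10.42 in wild type, 11.44 to 11.50 in R216Q, 11.04 to 11.06 in R216W, 10.72 to 10.76 in D218G and 12.10 to 12.14 in D218Y. Kit, a member of that list, was the largest part of that sum in every line. It stood at 9.51 in wild type, 10.96 in R216Q, 10.35 in R216W, 10.06 in D218G and 11.54 in D218Y. The list's median difference was -0.009 on the average, 0.02 in R216Q, -0.03 in R216W, -0.02 in D218G and -0.008 in D218Y. Tph1 was higher in R216Q (2.58), R216W (2.65) and D218Y (3.30) but not in D218G (-0.14), while Tpsab1, a tryptase, and Ms4a2, a chain of the IgE receptor, were higher in D218Y (3.06 and 2.46) with the other lines between -0.16 and 0.17. Cpa3, a mast cell protease, was at 5.26 in wild type and 5.40 over the mutants and was not called on the average, though D218Y was higher by 0.65. Fcer1a, the chain of the IgE receptor that binds IgE, lay near the bottom of the range throughout (4.06 and 4.05). Megakaryocyte genes went 2 higher and 7 lower of 18, with Tubb1 and Gp9 (-1.28 ± 0.05) falling in all 4 lines. Their summed level was 12.12 to 12.14 in wild type, 11.18 to 11.26 in R216Q, 11.75 to 11.80 in R216W, 11.37 to 11.46 in D218G and 11.02 to 11.05 in D218Y, while Pf4 (5.02 in wild type) and Ppbp (4.30) were near the bottom of the range in all. None of 19 granulocyte and monocyte genes was called, and 2 of 14 lymphoid genes were called lower (0 with centred arrays) and none in all 4 lines. The part of these cell types in the shared changes was not tested.

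Genes of cell growth rose together on the average. All 32 measured ribosome biogenesis genes were higher (median 0.44, where 15.5% of all genes were called higher), and Npm1, Fbl, Rrp1b, Wdr12, Gar1, Nhp2, Utp20, Ddx21 and Mybbp1a rose in all 4 lines. The list's median was 0.37 in R216Q, 0.08 in R216W, 0.41 in D218G and 0.88 in D218Y. Rrp1b, a nucleolar protein, read 8.20 to 8.22 in wild type, 9.12 to 9.19 in R216Q, 8.50 to 8.66 in R216W, 8.99 to 9.13 in D218G and 10.19 to 10.24 in D218Y. It rose by 1.04 ± 0.04 on the average (adjusted p = 6.23e-11), with R216W nearest to wild type. Of 22 heat shock and chaperone genes 16 were higher and 1 lower on the average, and the chaperonin genes Hspd1 and Cct6a, with Hsph1, rose in all 4. Calls in all lines were lost for Npm1 without wild type 1 or 3 or D218G 1 or 3, for Nhp2 without wild type 3 or R216W 1 or 2, for Mybbp1a without wild type 2, for Hsph1 without wild type 1 or D218G 1 or 3 and for Cct6a without wild type 1. Npm1, Nhp2, Hsph1 and Cct6a also lost them with arrays centred on their medians.

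Glycolysis genes were higher too, 16 of 18 with none lower (median 0.43, where 15.5% of all genes were higher and 2.75% rose in all lines). Slc2a1, Pfkp, Aldoa, Tpi1, Pgk1, Pgam1 and Ldha rose in all 4 lines. Pgam1, phosphoglycerate mutase, read 9.57 to 9.74 in wild type, 10.93 to 11.07 in R216Q, 10.73 to 10.87 in R216W, 10.14 to 10.21 in D218G and 11.45 to 11.59 in D218Y. D218G was the lowest mutant line for this gene, and the average rose by 1.26 ± 0.05. Hk2, hexokinase, rose by 1.13 ± 0.07 on the average but was not shared, at 0.20 in R216W. Pgk1 lost its call in all lines without wild type 3.

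Cell division genes were lower by small amounts. Of 27 mitosis genes 26 were lower on the average (median -0.21, where 12.5% of all genes were lower and 1.97% fell in all lines), and Cenpe, Cenpf, Plk1, Birc5, Mki67 and Prc1 fell in all 4 lines, from -0.25 for Plk1 to -0.57 ± 0.03 for Cenpf. Of 26 S phase genes 13 were lower and 1 higher (median -0.08), and Cdc6 alone fell in all 4, a call lost when any of 10 single arrays was left out (wild type 1 and 2, R216Q 2, R216W 1 and 3, D218G 1 and 2, and all of D218Y). Of 23 genes that restrain the cell cycle 13 were lower and 4 higher, Rbl1, Mxd1 and Mxi1 falling and Tob1 (0.77 ± 0.04) rising in all 4. With arrays centred on their medians 16 mitosis and 5 S phase genes were lower on the average, and of these shared falls Cenpf and Mxd1 alone kept their call. Without single arrays the call was lost for Cenpe (wild type 2, D218G 2), Prc1 (wild type 1 or 2, any R216W, D218G 1 or 2), Rbl1 (wild type 2, R216W 3) and Mxi1 (wild type 1 or 3, R216W 1 or 2, D218G 2).

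The other lists are read against 15.5% of all genes higher and 12.5% lower on the average, and 2.75% rising and 1.97% falling in all 4 lines. Of 26 autophagy genes 15 were lower and 4 higher, and Atg4b, Atg4d, Atg9a, Wipi1 and Pink1 fell in all 4 lines. With arrays centred on their medians the calls of Atg4b and Wipi1 in all lines were lost, as were those of Bcl2l1, Tgfbr1 and Ifnar2 below. Tgfbr1 also lost its call under quantile normalization. Of 14 Bcl2 family genes 3 were higher and 3 lower, and Bcl2l1, the survival gene of late red cell precursors, fell in all 4 (-0.42 ± 0.03). Lysosome genes went 8 higher and 6 lower of 26, Lgmn and Gusb rising and Ctsb (-0.69 ± 0.03) falling in all 4. Among 22 cytokine receptors Il10rb, Ifngr1 (0.83 ± 0.07), Ifngr2 (0.78 ± 0.04) and Tgfbr1 rose in all 4 and Ifnar2 fell. Tgfbr1 and Ifnar2 were narrow, since 7 and 8 of the 15 arrays each ended the call when left out, 2 wild type arrays among them for both (1 and 3 for Tgfbr1, 2 and 3 for Ifnar2). The others were R216W 1 and 3, D218G 1 and D218Y 2 and 3 for Tgfbr1, and arrays 2 and 3 of R216Q and R216W and 1 and 2 of D218G for Ifnar2. Of 27 amino acid and ATF4 response genes 12 were higher and 2 lower, with Sesn2 (0.59 ± 0.04) alone shared. None of 21 interferon response genes was shared, 1 being higher and 2 lower on the average where 28.0% of all genes were called. Of 13 stroma and endothelium genes Vim, the filament protein vimentin, rose in all 4 (0.91 ± 0.04).

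**Figure D4:**
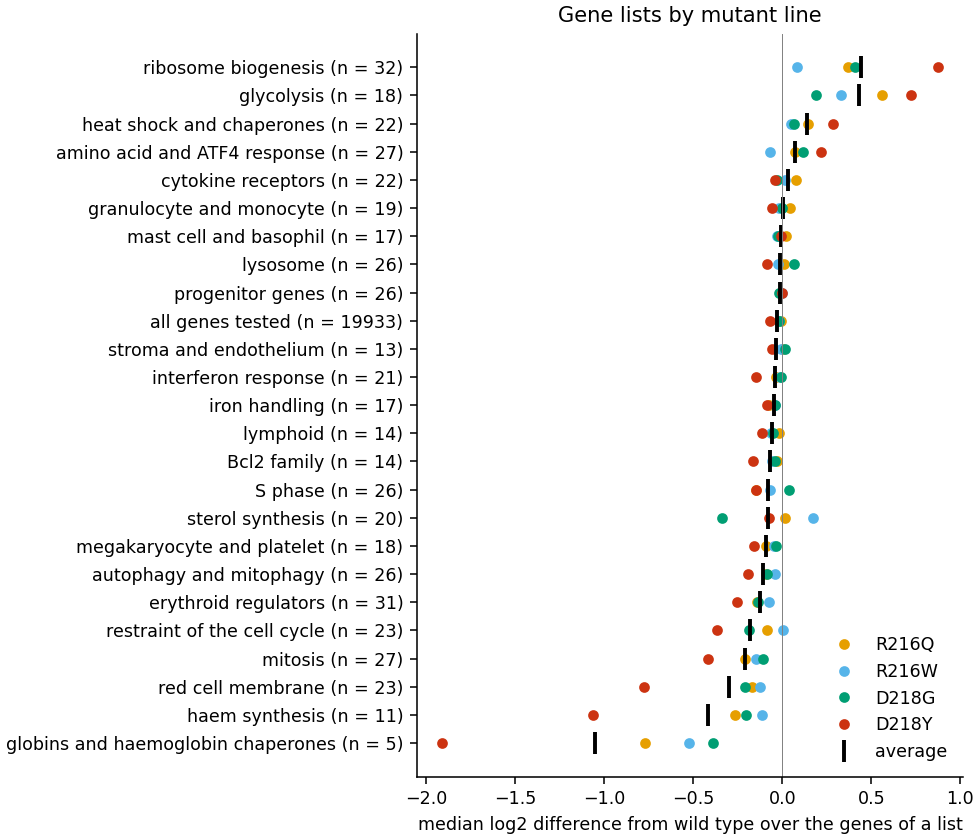
Points give, for each gene list (rows, with the number of measured genes), the median log2 difference from wild type over its genes in each mutant line, and the black bar that of the average. Ribosome biogenesis (0.44) and glycolysis (0.43) stand highest, globins (-1.05) and haem synthesis (-0.42) lowest, and for sterol synthesis R216W (0.17) and D218G (-0.34) lie on opposite sides.

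The average hid lines that moved in opposite directions. In 989 genes (4.96%) at least 1 line was called higher and at least 1 lower, and in 431 (2.16%) a called average covered a line called the other way. Gata2 read 8.29, 8.25 and 8.41 in wild type, 9.48 to 9.49 in R216Q, 9.51 to 9.61 in R216W, 7.99 to 8.06 in D218G and 11.15 to 11.18 in D218Y. It was above wild type in 3 lines and below in D218G (-0.29), so the average of 1.25 ± 0.03 (adjusted p = 5.38e-12) describes no shared rise. Gdpd1, a phosphodiesterase gene, had the reverse form, at 9.58 to 9.72 in wild type, 9.98 to 10.09 in D218G and 7.37 to 8.40 in the other lines.

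In 4 of the 6 genes ranked for this, R216W was the line apart. Rragd, a GTPase that signals amino acids to mTORC1, read 9.58 to 9.73 in wild type, 10.05 to 10.15 in R216W, at most 8.11 in R216Q, 8.23 to 8.61 in D218G and 6.37 to 6.51 in D218Y. Slc14a1, the urea transporter of red cells, read 9.29 to 9.31 in wild type, 9.67 to 9.78 in R216W and 7.28 to 8.07 in the rest. Cpne7 and Spns2, a transporter of sphingosine 1-phosphate, did likewise, with averages of -1.34 and -1.05 and R216W at 0.24 and 0.15. The lines divided differently for Il9r, the interleukin 9 receptor, whose average was 0.06 ± 0.04 and did not pass (adjusted p = 0.309), with R216Q at 0.96, R216W at 1.79, D218G at -1.42 and D218Y at -1.10. Of 20 sterol synthesis genes 11 had lines called in opposite directions, where 4.96% of all genes did. None of them was shared, where 4.72% of all genes were, so few would be looked for in a list of this size.

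**Figure D5:**
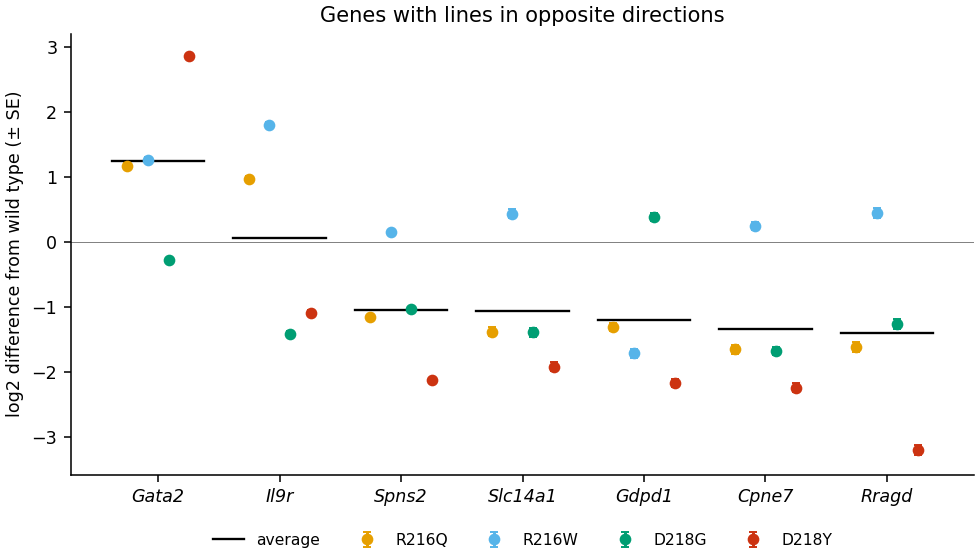
Points are the log2 differences from wild type of each mutant line with limma's standard error as bars (3 arrays per line), and the black line is the average of the 4. Lines fall on both sides of 0 for every gene shown, D218G apart for Gata2 and Gdpd1 and R216W apart for Spns2, Slc14a1, Cpne7 and Rragd.

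Large averages were therefore not always shared. Of the 10 largest average rises 7 were shared, and so were 7 of the 10 largest falls. Ranked without placeholder symbols, Slc30a2, a zinc transporter, had the largest average rise (2.37 ± 0.06, adjusted p = 5.38e-12). It read 6.49 to 6.83 in wild type, 9.99 to 10.06 in R216Q, at most 10.09 in R216W, 6.35 to 6.67 in D218G and 9.52 on each D218Y array, so D218G overlapped wild type. Tph1, the first enzyme of serotonin synthesis (2.10), and Erv3, an endogenous retroviral gene (1.61), were the other large rises not shared. Slc22a4, an organic cation transporter, had the largest average fall (-2.04, adjusted p = 1.67e-12) but read 9.93 to 9.99 in R216W against 9.88 to 10.06 in wild type.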

How the data were processed

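Total RNA of 15 G1E cultures was measured on Affymetrix mouse arrays, 1 array per culture, 3 per line, and groups and replicate numbers came from the titles in the labels. The authors deposited 1 log2 value per probe set and array, made with RMA in Partek 6.6 per the submitters' processing notes; the sources used here do not give its settings. RMA makes array distributions alike and compresses changes of dim genes. They were tested as deposited, dim genes included. Precision depends on how many arrays there are, as array values have no read depth.

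Of 28350 probe sets 21780 had 1 gene symbol in the platform annotation, 1618 several and 4952 none listed, and 21689 matched a RefSeq gene identifier, with 0 symbols changed. A gene was represented by whichever of its probe sets had the highest mean over the 15 arrays (996 genes had several), which gave 19933 genes. Cross-hybridisation between related genes was not tested. limma 3.58.1 (R 4.3.3) fitted 1 mean per line (10 residual and 3.94 prior degrees of freedom), with the contrasts average of 4 lines minus wild type, each line minus wild type, D218Y minus the mean of the other 3, and an F test among the 4, each with Benjamini-Hochberg adjustment over all genes and two-sided calls where the adjusted p was under 0.05.

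The comparison, the gene lists, the naming rule and most tests were chosen with earlier results of these data known. The rule for naming genes took Gata1; the 12 shared rises and 12 shared falls without array overlap that changed most in their weakest line; the 5 most even of each with an average of at least 0.5; the 10 largest averages each way; the 6 largest with a line called the opposite way; up to 4 per list; the genes on either side of the shared threshold; and 18 erythroid, progenitor and other genes listed by name. Placeholder symbols were passed over. Simulated data had 19933 genes, 19333 of them unchanged, and noise independent between arrays. Genes changed by 0.5 in all lines were called in all lines in 94% (rises) and 92% (falls). Those changed by 0.25 were called in 48% and 42%, and genes changed in 1 line in 0%. For genes changed in opposite directions 0% is fixed by the definition of the call. On the average, changes of 1 were called in 80% (1 line) and 100% (opposite directions). Many more genes were called in the real data, so these shares describe the simulation only.

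Alternatives were other scalings, a level filter, other moderation and weights, the replicate number as a block, stricter thresholds, other probe set rules, line means as units, and each line and array left out. Same-numbered arrays of different lines did not deviate together (3 of 30 pairs correlated over 0.1, median -0.02), so the numbers were not taken to pair cultures.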

Additional observations from a re-analysis of the deposited data

Results flagged for a closer look

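Among the genes named, 13 had at least 1 mutant line called higher and at least 1 called lower than wild type. Over all genes 4.96% had this pattern, and some of the 13 were named for it. They were also picked for passing limma's F test among the 4 mutant lines, so that test is descriptive here. The adjusted p of that test was 6.48e-13 for Rragd, 2.26e-12 for Cpne7, 1.02e-14 for Gata2, 1.96e-12 for Gdpd1, 7.59e-12 for Slc14a1, 3.26e-14 for Spns2 and 4.73e-15 for Il9r, whose values stand above. From the gene lists came Tfr2, the second transferrin receptor, where R216W lay at -0.53 and D218Y at 1.44 (adjusted p = 8.38e-12). Gadd45a, a stress gene that restrains division, was at 0.40 in R216W and -1.62 in D218Y (adjusted p = 6.49e-12). The sterol synthesis genes Fdft1 (0.18 in R216W, -0.62 in D218G, adjusted p = 8.83e-09) and Idi1 (0.32 and -0.66, adjusted p = 6.94e-09) went the same way as each other. Usp18, an interferon response gene, was lower in R216Q (-0.36) and R216W (-0.38) and higher in D218G (0.86) and D218Y (1.09) (adjusted p = 7.82e-12). Il4ra, the interleukin 4 receptor, was higher in R216Q (0.82) and R216W (2.18) and lower in D218Y (-0.16), while D218G (-0.14) did not pass (adjusted p = 1.02e-12 for the difference among lines).

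Shared direction did not mean equal size. The F test among the mutant lines passed for 525 of the 548 genes that rose in all lines and 370 of the 392 that fell, where 39.7% of all genes passed.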

How the results depend on the processing

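The 5575 calls on the average ranged from 4665 to 5893 when 1 array was left out, the 548 shared rises from 397 to 572, the 392 shared falls from 306 to 443, the 7906 differences among mutant lines from 7082 to 9804, the 7936 genes that set D218Y apart from 6214 to 10108, and Gata1 from -0.16 to -0.15. Of the shared genes 328 rises and 247 falls were kept in all 15 of these fits, and 314 and 159 also under the 3 other scalings. With arrays centred on their medians 163 falls remained (161 of them among the 392) with 392 rises, and Gata1 was no longer called (-0.11, adjusted p = 0.0703). Quantile normalization gave 554 shared rises and 487 falls, and cyclic loess 598 and 478. Each of these 2 scalings kept 383 of the 392 falls. At an adjusted p under 0.01 there were 329 shared rises and 243 falls. Requiring 1.5-fold left 456 genes on the average, 17 shared rises, 11 shared falls and 1107 genes for D218Y, and Gata1 (-0.15) did not reach it. On line means 0 genes were called on the average, and Gata1 (-0.15) had an adjusted p of 0.898. With calls asked of 3 lines there were 1325 rises and 906 falls without R216W and 998 and 730 without D218G, but 579 and 425 without R216Q and 553 and 408 without D218Y. Without D218Y 5022 genes differed among the mutant lines. With the replicate number as a block, which the data did not bear out as a pairing, there were 5238 calls on the average, 500 shared rises and 343 shared falls. Il9r turned lower on the average without R216Q (-0.25, adjusted p = 1.23e-04) or R216W (-0.52, adjusted p = 4.71e-08), and the averages of Tpsab1 (-0.0018) and Ms4a2 (-0.011) rested on D218Y, without which they lay at those values. The cause of these changes was not tested beyond the arrays, lines or thresholds left out. Levels near the lowest array values, as for Mcpt2, limit what a fall can show.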

Other observations

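The largest fall on the average belonged to Gm5662, a gene model with a placeholder symbol that the naming rule passed over and that was chosen here after its values were seen. Its wild type mean was 9.36, and the average was -3.16 ± 0.14, with -3.05 in R216Q, -1.97 in R216W, -2.03 in D218G and -5.57 in D218Y.

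Without a test for each line, the sign of the difference was positive in all 4 lines for 3215 genes (16.1%) and negative in all 4 for 6073 (30.5%). These counts were taken on the deposited scale alone, and the median average difference over all genes was -0.0277 there, -2.71e-04 after cyclic loess and 0.0111 with centred arrays. The 4 lines share the wild type arrays.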
